A study of Arabidopsis thaliana with 12 samples.

Results

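The genes described here carry out DNA replication and cell division in Arabidopsis thaliana, and were followed in mutants of the alpha subunit of TFIIF, a general transcription factor that RNA polymerase II uses at promoters. They were 34 of the 33602 genes counted, picked by their AGI identifiers from a list made with earlier results of these data known. They comprise A-, B- and D-type cyclins, the kinases CDKA;1 and CDKB, the Aurora kinases AUR1 and AUR2, KNOLLE, CDC20.1, CDC6A, MCM2 to MCM7, CDC45, PCNA1 and PCNA2. By the phase in which their products act, 12 were read as S-phase genes, 15 as mitotic genes and 7 as genes of G1 or of several phases. All 34 passed the filter on low counts in both comparisons, so none was lost to it.

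The tested genotypes were tfIIfα-1, with 3 mRNA libraries, and tfIIfα-2, with 3 total RNA libraries. Each had its own wild type of 3 libraries, which the titles call 1171WTCol3 for the mRNA kit and WTCol0 for the total RNA kit that depletes ribosomal RNA. Every library came from the aerial parts of plants 6 days old, grown with 1% sucrose in 16 h of light and 8 h of darkness after 3 days of cold. The labels give neither the lesion of either allele nor whether replicates were separate cultures, so p-values here measure only the spread between these samples. Allele and kit differ together and cannot be told apart.

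Plant cells copy their DNA in S phase, when the MCM helicase loaded at origins by ORC, CDC6 and CDT1 opens the double helix and PCNA clamps the polymerases to it. Many genes of that machinery are switched on by E2F factors once D-type cyclins have relieved their repression by the retinoblastoma protein. Many mitotic genes, such as B-type cyclins and KNOLLE, are switched on later by MYB3R factors that read a short promoter motif called MSA. In young aerial parts these genes are used mainly in the shoot meristem, leaf primordia and the stomatal lineage, and in whole organs fewer dividing cells and less RNA per dividing cell cannot be told apart.

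The mRNA libraries held 55915638 to 66711096 counts, of which the 34 genes took 33813 to 38705 per library. The total RNA libraries held 33292996 to 37456773 counts, but plastid genes took 57.3% to 62.5% of them and the 34 genes 8561 to 12574 counts. RAP74 (AT4G12610), the gene for the subunit itself, was at 14.3, 16.5 and 15.9 CPM (counts scaled to a common library size) in tfIIfα-1, against 21.3, 21.2 and 18.4 CPM in its wild type (log2 fold change -0.38 ± 0.08 SE, adjusted p = 0.00217, edgeR). It was at 4.84, 6.03 and 5.78 CPM in tfIIfα-2, against 8.06, 7.58 and 8.06 CPM (log2 fold change -0.51 ± 0.12, adjusted p = 0.0659, and 0.0168 with the replicate number as a block). Neither pair of groups overlapped. Where each mutation lies cannot be read from these counts. By its identifier RAP74 stands just before a stretch of chromosome 4, from AT4G12640 to AT4G15550. The median log2 fold change of the tested genes in that stretch was -0.997 in tfIIfα-1 and -0.03 in tfIIfα-2. The part of the stretch in the RAP74 values was not tested. Of the tfIIfα-1 libraries, a and b, whose column headers name the other allele, stand apart in that 72.2% and 69.6% of the gene counts in them were even numbers, against 57.6% to 61.5% in the other mRNA libraries. Where leaving out both ended a call, the value without them is given beside it. RAP74 kept its call in tfIIfα-1 without them.

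Green leaf markers were abundant in every library. In tfIIfα-1, LHCB2.1 was called higher (log2 fold change 0.22, adjusted p = 0.0565 without wild-type replicate 2) and CAB3 lower (-0.35), both for chlorophyll-binding proteins, and in tfIIfα-2 no green leaf marker was called. Shoot meristem markers were present except that WUS and CLV3 were at or near 0. The summed level of 8 root markers, most of it PYK10, was 1458 to 1598 CPM in tfIIfα-1 and 1329 to 1528 CPM in wild type. In tfIIfα-2 it was 1106, 853 and 896 CPM, against 862, 670 and 583 CPM, higher in the mutant for each of the 3 replicate numbers. Of the root markers, WOX5 was called lower in tfIIfα-1 (log2 fold change -1.57, adjusted p = 0.0107), at only 6, 16 and 14 counts against 40, 30 and 46. PYK10 (0.13) and CASP1 (0.10) were not called there, and the rest were too low to be tested. In tfIIfα-2, WOX5 was too low to be tested, at 3, 5 and 3 counts against 7, 8 and 11. PYK10 (0.43, adjusted p = 0.212) and CASP1 (2.05, adjusted p = 0.174, at 22, 25 and 44 counts against 2, 19 and 2) were not called. The summed level of 8 stomatal lineage markers was 42.8, 41.4 and 34.8 CPM in tfIIfα-1 and 47.8, 44.3 and 45.3 CPM in wild type. These do not overlap, though tfIIfα-1 replicate 1, at 42.8 CPM, is close to the lowest wild-type value. For single genes, the libraries were apart for 49.4% of all genes. FAMA and TMM made the largest parts of the sum, and the groups overlapped for TMM. The summed level of 8 shoot meristem markers was 71.4, 70.3 and 77.1 against 76.6, 75.4 and 74.9 CPM, with overlap. In tfIIfα-2 and its wild type both sums overlapped. The part of these cells in the results was not tested.

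The first comparison asked which of the 34 genes differed between tfIIfα-1 and wild type. Both PCNA genes and the helicase subunits MCM2 and MCM3 rose, as did the mitotic cyclin CYCB1;1, and the cyclin CYCA2;2 and the kinase CDKA;1 fell. These 7 genes are 20.6% of the 34, against 38.4% of the 20371 genes tested (edgeR quasi-likelihood test, Benjamini-Hochberg adjusted p under 0.05). The 5 that rose are 14.7%, against 18.7% of all genes, and the 2 that fell are 5.88%, against 19.6%. The median log2 fold change of the 34 was -0.02 and that of all genes -0.00. Calls among the 34 were thus no more frequent than over all genes, and their fold changes were small, up to 1.48-fold for PCNA1. The 95% interval of the log2 fold change lay within 0.5 either side of 0 for 28 of the 34 genes.

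**Figure D1:**
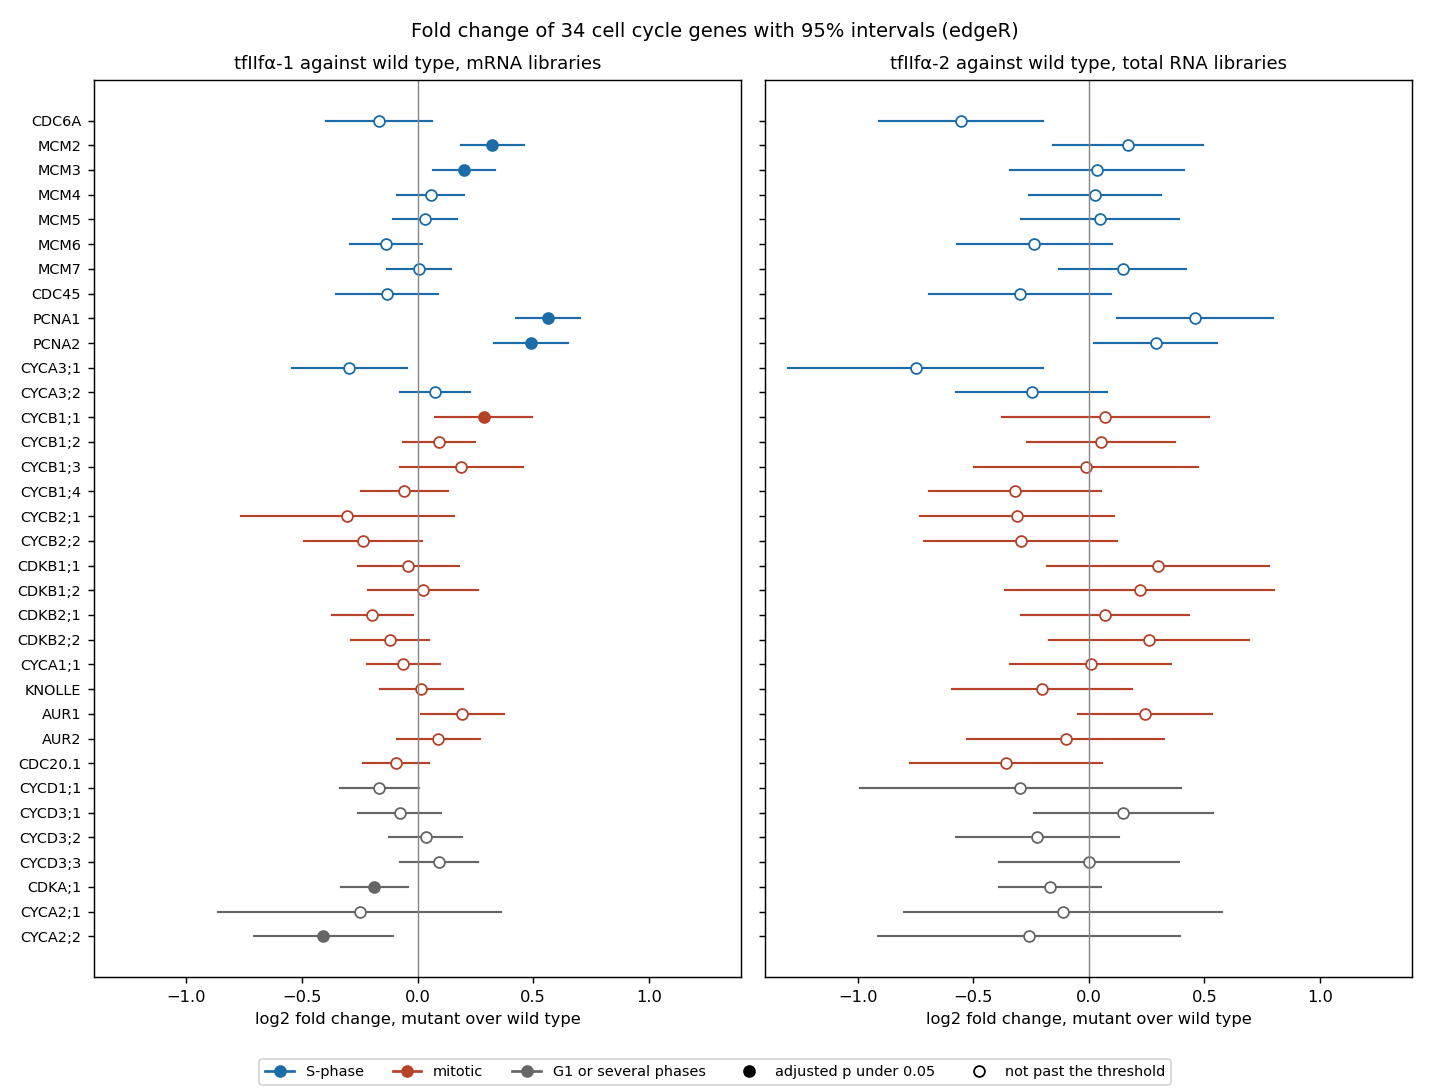
Log2 fold change of each of the 34 genes, mutant over wild type of the same kit, with its 95% interval from edgeR, for tfIIfα-1 on the left and tfIIfα-2 on the right. Colours give the phase and filled points passed an adjusted p of 0.05: in tfIIfα-1 PCNA1, PCNA2, MCM2, MCM3 and CYCB1;1 lie above 0 and CDKA;1 and CYCA2;2 below, and no point is filled for tfIIfα-2.

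Among the S-phase genes, 5 of 12 carried an exact E2F motif in the 300 bases before the annotated gene start in the RefSeq annotation of TAIR10.1. The letters searched on both strands were TTTCCCGC, TTTGGCGC, TTTGCCGC and TTTCGCGC. One of them stood in 1.57% of the 27443 promoters of nuclear protein-coding genes, in 0 of the 15 mitotic genes and in 1 of the other 7, CYCD3;3. All 5 are helicase subunits, and they are printed because 2 of them rose and 3 did not pass the test. Each is given 5′ to 3′ on the strand of its gene, with the motif or its reverse complement in capitals.
MCM2, chr1:16970178-16970213, plus strand: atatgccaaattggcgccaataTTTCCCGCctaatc
MCM3, chr5:18773847-18773898, minus strand: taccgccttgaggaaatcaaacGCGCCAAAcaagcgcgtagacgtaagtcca
MCM4, chr2:7130735-7130786, minus strand: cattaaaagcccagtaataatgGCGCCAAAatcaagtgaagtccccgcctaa
MCM5, chr2:3527501-3527541, minus strand: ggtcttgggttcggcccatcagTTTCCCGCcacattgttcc
MCM6, chr5:18010684-18010735, minus strand: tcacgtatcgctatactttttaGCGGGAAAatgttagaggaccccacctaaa

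PCNA1 (AT1G07370), a gene for the sliding clamp of DNA polymerases, was at 32.3, 33.9 and 33.7 CPM in tfIIfα-1, against 21.96, 21.97 and 23.6 CPM in wild type. The groups were far apart, and the difference was the largest of the 34 (log2 fold change 0.56 ± 0.06 SE, adjusted p = 1.09e-05). PCNA2 (AT2G29570), its paralogue, was at 36.3, 39.7 and 43.5 CPM, against 27.1, 30.1 and 27.8 CPM in wild type (0.49 ± 0.08, adjusted p = 0.000149). Here too every mutant library was above every wild-type library. No stretch of 50 bases of PCNA1 exons stood in the exons of another gene. Of those of PCNA2 23.3% did, shared with its overlapping neighbour AT2G29560, so the values of PCNA2 are less certain. Neither gene carried an E2F or MSA motif of the letters searched within the window.

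MCM2 (AT1G44900), a subunit of the replicative helicase, was at 32.6, 33.2 and 33.1 CPM in tfIIfα-1, against 25.6, 27.9 and 25.6 CPM in wild type (log2 fold change 0.32 ± 0.06 SE, adjusted p = 0.00109). MCM3 (AT5G46280) was at 33.3, 33.5 and 31.5 CPM, against 28.2, 27.9 and 29.4 CPM (0.20 ± 0.06, adjusted p = 0.0194). Both pairs of groups were apart. PCNA1, PCNA2 and MCM2 passed the test in each of the 6 fits that left out 1 library, and without libraries a and b as well. MCM3 lost its call without wild-type replicate 1 (adjusted p = 0.0693), wild-type replicate 2 (0.0766) or tfIIfα-1 replicate 1 (0.0538), and without a and b (0.0693).

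The other 4 subunits of the same ring were nearly level. MCM4, MCM5 and MCM7 had log2 fold changes of 0.06, 0.03 and 0.01, with 95% intervals inside -0.13 to 0.20. The estimate for MCM2, 0.32, lies outside each of them. The interval of MCM2 itself (0.187 to 0.460) overlaps that of MCM4, but not those of MCM5 and MCM7. Differences between genes were not tested. MCM6 was at 14.6, 15.4 and 15.2 CPM in tfIIfα-1 and at 17.4, 16.1 and 16.1 CPM in wild type, apart but not past the threshold (-0.14 ± 0.07, adjusted p = 0.152). Helicase subunits that carry E2F letters include the 2 that rose and 3 that did not pass. The 95% interval of MCM3 (0.068 to 0.335) overlaps those of MCM4 (-0.088 to 0.203) and MCM5 (-0.106 to 0.170), but not that of MCM6 (-0.293 to 0.018). The part of the motif in these values was not tested.

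CDC6A, which helps to load the helicase at origins, and CDC45, which activates it, had log2 fold changes of -0.17 ± 0.11 and -0.13 ± 0.10 and did not pass. CYCA3;1 (AT5G43080), an A-type cyclin of S phase, was at 4.31, 4.36 and 4.49 CPM in tfIIfα-1, against 5.40, 5.89 and 4.85 CPM in wild type (-0.29 ± 0.12, adjusted p = 0.0604). Its groups were apart with the mutant below, and it passed only without wild-type replicate 3 (adjusted p = 0.0414) among the fits that left out 1 library. Its close relative CYCA3;2 had a log2 fold change of 0.07 ± 0.07. In all, 4 of the 12 S-phase genes rose (33.3%, beside 18.7% of all genes), none fell, and their median log2 fold change was 0.04.

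**Figure D2:**
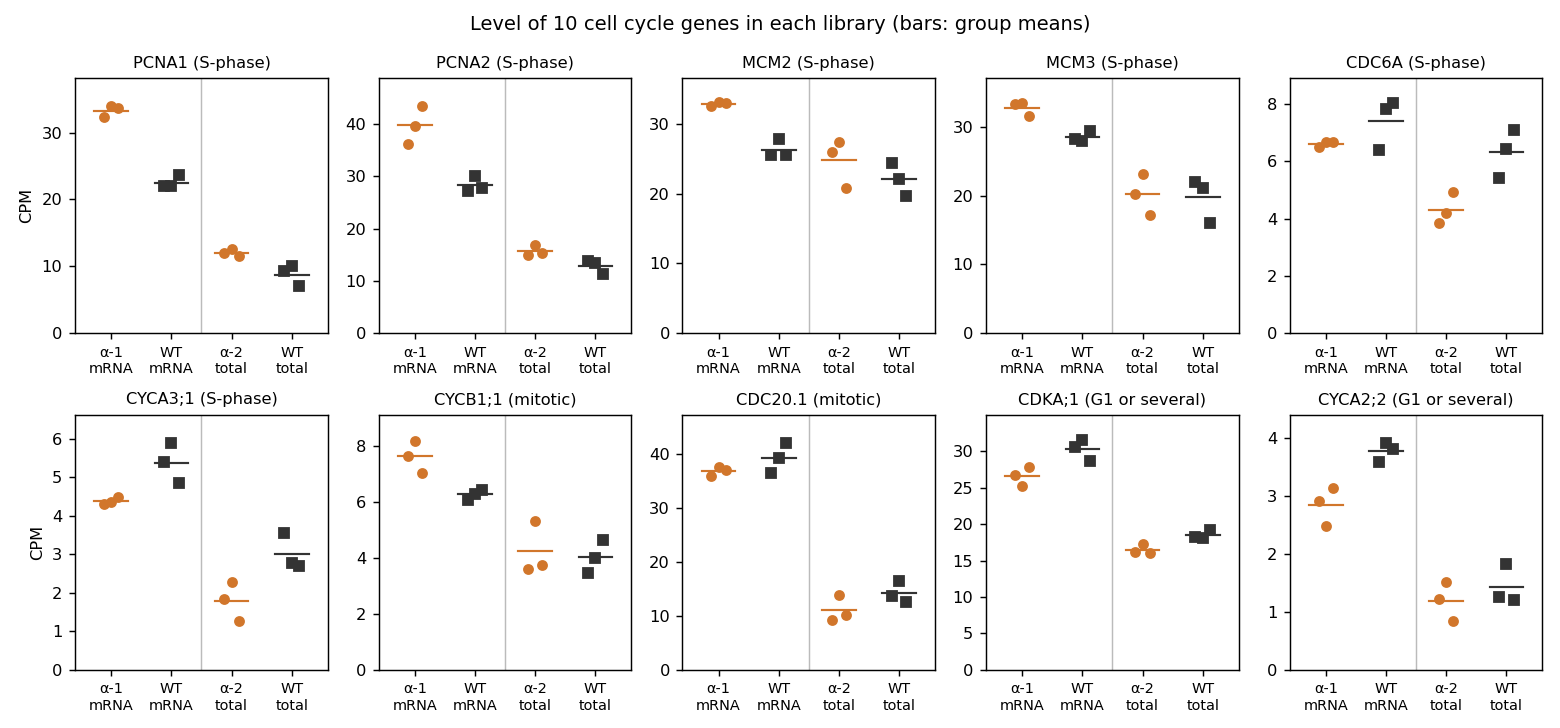
CPM of 10 of the genes in every library, with a bar at each group mean, in the order tfIIfα-1 and wild type (mRNA libraries), then tfIIfα-2 and wild type (total RNA libraries). For either kit the mutant points lie wholly above the wild-type points for both PCNA genes and wholly below them for CYCA3;1, whereas MCM3 and CYCB1;1 are apart in the mRNA libraries and overlap in the total RNA libraries.

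Among the mitotic genes, 6 of 15 carried an MSA core in the same window, searched on both strands as CCAACGG, as TCAACGG, as CTAACGG and as TTAACGG. These letters stood in 7.69% of all 27443 promoters, in 2 of the 12 S-phase genes (CDC45 and CYCA3;1) and in 0 of the other 7. The carriers were CYCB1;1, CYCB1;2, CYCB1;3, CYCB2;1, CYCB2;2 and CDKB2;2. The 3 carriers among the B1 cyclins are printed because CYCB1;1 passed the test in tfIIfα-1, and CYCB1;2 and CYCB1;3, with the same motif letters, did not, although their 95% intervals overlap with its own, and CYCA3;1 because its MSA letters, on both strands, overlap.
CYCB1;1, chr4:17624341-17624391, minus strand: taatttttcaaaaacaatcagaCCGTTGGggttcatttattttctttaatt
CYCB1;2, chr5:1861704-1861870, minus strand: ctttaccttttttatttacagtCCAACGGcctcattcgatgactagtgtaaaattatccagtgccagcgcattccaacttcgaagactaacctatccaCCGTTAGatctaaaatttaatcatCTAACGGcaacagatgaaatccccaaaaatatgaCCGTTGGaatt
CYCB1;3, chr3:3627286-3627359, minus strand: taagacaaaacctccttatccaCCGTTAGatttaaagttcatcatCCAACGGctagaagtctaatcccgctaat
CYCA3;1, chr5:17292685-17292738, plus strand: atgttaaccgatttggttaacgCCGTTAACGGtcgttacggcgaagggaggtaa

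CYCB1;1 (AT4G37490), a cyclin of G2 and mitosis that Arabidopsis also induces after DNA damage, was at 7.67, 8.20 and 7.06 CPM in tfIIfα-1, against 6.08, 6.30 and 6.45 CPM in wild type. The groups were apart (log2 fold change 0.29 ± 0.10 SE, adjusted p = 0.0332). The call held without tfIIfα-1 library b and was lost without any other 1 library. Without wild-type replicate 1, 2 or 3 the adjusted p was 0.104, 0.0719 or 0.0579, without tfIIfα-1 replicate 1 it was 0.0694, and without library a it was 0.119. Without a and b it was 0.133.

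The remaining mitotic genes did not pass. CDKB2;1 (AT1G76540), a plant-specific mitotic kinase, was at 21.3, 20.7 and 18.8 CPM in tfIIfα-1 and at 21.3, 25.8 and 22.6 CPM in wild type, barely apart (-0.20 ± 0.08, adjusted p = 0.0719, and 0.0433 without wild-type replicate 1). AUR1, a kinase of spindle and chromosomes, had 0.19 ± 0.08 (adjusted p = 0.084), and its paralogue AUR2 0.09 ± 0.08. The other 5 B-type cyclins ranged from -0.30 for CYCB2;1 to 0.19 for CYCB1;3, and the other 3 CDKB kinases from -0.12 to 0.02. KNOLLE, the syntaxin of the forming cell plate, had 0.02 ± 0.08, CDC20.1, an activator of the anaphase-promoting complex, -0.09 ± 0.07, and CYCA1;1, a mitotic A-type cyclin, -0.06 ± 0.07. In all, 1 of the 15 mitotic genes rose (6.67%, beside 18.7% of all genes), none fell, and their median was -0.04. Of the 50-base stretches in exons of CDC20.1, 33.2% also stand in its neighbour CDC20.2, and 11.3% of those of CYCB1;2 stand elsewhere, most of them in CYCB1;5. Annotated exons of other genes hold 43.8% of such stretches of AUR2, 32.2% of KNOLLE, 22.5% of AUR1, 16.2% of CDKB1;2 and 14.3% of CDKB2;2. The values of these 7 genes are less certain, since how shared reads were counted is not given in the sources used here.

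CYCA2;2 (AT5G11300), an A-type cyclin of the class that pairs with CDKB1 and holds back endoreduplication, was at 2.92, 2.49 and 3.14 CPM in tfIIfα-1, against 3.599, 3.92 and 3.81 CPM in wild type (log2 fold change -0.41 ± 0.14 SE, adjusted p = 0.0341). CDKA;1 (AT3G48750), the kinase used from G1 to mitosis, was at 26.8, 25.2 and 27.8 CPM, against 30.5, 31.6 and 28.7 CPM (-0.19 ± 0.07, adjusted p = 0.0402). Both pairs of groups were apart with the mutant below. Neither call held in every fit that left out 1 library. For CYCA2;2 it held only without library b, with an adjusted p of 0.0551, 0.0883 and 0.077 without wild-type replicates 1, 2 and 3, 0.059 without tfIIfα-1 replicate 1, 0.125 without library a and 0.191 without a and b. For CDKA;1 it held without wild-type replicate 3 or library b, with 0.105 and 0.148 without wild-type replicates 1 and 2, 0.0717 without tfIIfα-1 replicate 1, 0.123 without a, 0.189 without a and b, and 0.0522 in DESeq2.

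The D-type cyclins, which carry growth signals into G1, did not pass in tfIIfα-1. CYCD1;1 was at 29.1, 24.7 and 24.1 CPM in the mutant and at 28.4, 31.3 and 27.6 CPM in wild type, with overlap (log2 fold change -0.16 ± 0.08, adjusted p = 0.122, and 0.0218 without tfIIfα-1 replicate 1). The 3 CYCD3 genes lay between -0.08 and 0.09. CYCA2;1, at 0.762, 0.589 and 0.803 CPM in the mutant and 0.826, 0.730 and 1.00 CPM in wild type, had the lowest level per kilobase of the 34 and its groups overlapped.

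S-phase and mitotic genes were then set side by side within each library. The mean log2 CPM of the 12 S-phase genes was 4.17, 4.22 and 4.21 in tfIIfα-1, against 4.10, 4.13 and 4.12 in wild type, without overlap. Within this class PCNA1, PCNA2, MCM2 and MCM3 had log2 fold changes of 0.56, 0.49, 0.32 and 0.20, and the rest ran from -0.29 to 0.07. For single genes, the libraries were apart for 49.4% of all genes in this comparison. The mean of the 15 mitotic genes was 3.34, 3.33 and 3.35 in tfIIfα-1 and 3.28, 3.38 and 3.39 in wild type, with overlap. The S-phase mean exceeded the mitotic mean by 0.836, 0.889 and 0.862 in the tfIIfα-1 libraries, against 0.818, 0.747 and 0.723 in wild type. These groups do not overlap either, though the lowest mutant value is close to the highest wild-type value. The median fold changes do not keep that order without libraries a and b, where the S-phase median was 0.02 and the mitotic median 0.03. No test was run on a score over chosen genes.

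**Figure D3:**
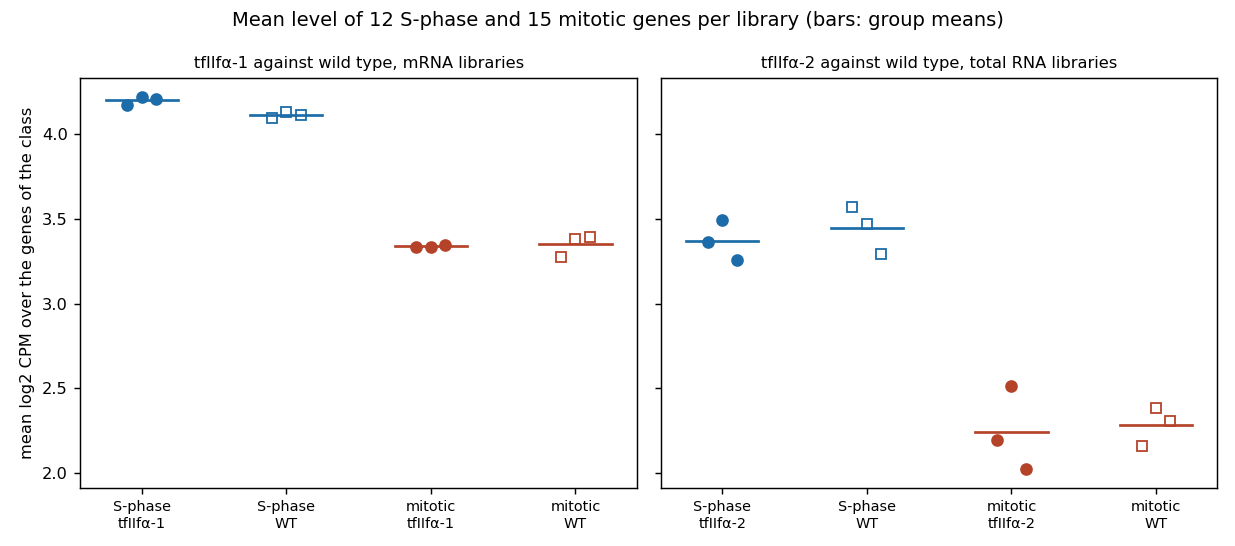
Mean log2 CPM over 12 S-phase genes (blue) and 15 mitotic genes (red) in each library, with filled circles for mutant and open squares for wild type and a bar at each group mean. For tfIIfα-1 the S-phase means are 4.17 to 4.22 in the mutant and 4.10 to 4.13 in wild type, and the mitotic means overlap. For tfIIfα-2 both classes overlap with wild type.

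The second comparison asked the same of tfIIfα-2 in total RNA. None of the 34 genes passed the test in edgeR, where 3.2% of 18863 genes did (1.48% higher, 1.72% lower). At an unadjusted p under 0.05 there were 4 of the 34, against 4169 of the 18863 genes. DESeq2 and limma-voom each called 0 of the 34, where they called 7.13% and 3% of all genes. Each had 4 of the 34 at an unadjusted p under 0.05. All 4 in edgeR were S-phase genes: CDC6A, CYCA3;1, PCNA1 and PCNA2. The spread between libraries was wider than in the mRNA kit, and 11 of the 34 intervals lay within 0.5 either side of 0.

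CDC6A (AT2G29680) was at 3.83, 4.199 and 4.92 CPM in tfIIfα-2, against 5.43, 6.43 and 7.11 CPM in wild type (log2 fold change -0.55 ± 0.15 SE, adjusted p = 0.0922). CYCA3;1 was at 1.84, 2.27 and 1.253 CPM, against 3.54, 2.76 and 2.71 CPM (-0.75 ± 0.24, adjusted p = 0.121). Every mutant library lay below every wild-type library for both genes. PCNA1 was at 12.03, 12.6 and 11.5 CPM in tfIIfα-2, against 9.22, 10.05 and 7.01 CPM in wild type (0.46 ± 0.15, adjusted p = 0.122). PCNA2 was at 15.03, 16.8 and 15.4 CPM, against 13.8, 13.3 and 11.4 CPM (0.29 ± 0.11, adjusted p = 0.193). Both PCNA genes had the mutant above with no overlap.

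The labels state no pairing of the total RNA libraries, but libraries of the same replicate number deviated together in these counts. With the number as a block, a choice made from these same counts, 4 genes passed (11.8% of the 34, against 18.7% of all genes in that fit, 9.56% higher and 9.18% lower). PCNA1 was higher in tfIIfα-2 (log2 fold change 0.47 ± 0.10, adjusted p = 0.0181). CDC6A (-0.55 ± 0.11, adjusted p = 0.0111), CYCA3;1 (-0.76 ± 0.19, adjusted p = 0.027) and CDC20.1 (-0.37 ± 0.10, adjusted p = 0.0347) were lower. CDC20.1 was at 9.16, 13.9 and 10.2 CPM in tfIIfα-2 and at 13.7, 16.4 and 12.5 CPM in wild type, which overlap, but each mutant library was below the wild-type library of its number. The authors' deposited table gives an adjusted p under 0.05 for PCNA1 (log2 fold change 0.47), CDC6A (-0.54) and CYCA3;1 (-0.74) in tfIIfα-2, where 16% of its 18073 genes have one (8.15% higher, 7.9% lower). For tfIIfα-1 the authors' deposited table gives one for PCNA1 (0.58), PCNA2 (0.51) and MCM2 (0.34), where 23% of genes have one (11.4% higher, 11.6% lower). It lists no p for CYCA2;1.

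MCM2, MCM3, MCM4, MCM5 and MCM7 had log2 fold changes of 0.17, 0.03, 0.03, 0.05 and 0.15 in tfIIfα-2, and MCM6 -0.24, all with overlap between groups. CDC45 was at -0.30 ± 0.17 and CYCA3;2 at -0.25 ± 0.14. The B-type cyclins ranged from -0.32 for CYCB1;4 to 0.07 for CYCB1;1, and the CDKB kinases from 0.07 for CDKB2;1 to 0.30 for CDKB1;1. AUR1 was at 5.02, 5.46 and 4.43 CPM in the mutant, against 4.17, 4.201 and 4.24 CPM in wild type, apart with the mutant above (0.24 ± 0.12, adjusted p = 0.302). CDKA;1 was at 16.1, 17.2 and 16.0 CPM, against 18.2, 18.1 and 19.2 CPM, apart with the mutant below (-0.17 ± 0.10, adjusted p = 0.344). CYCD1;1 ranged widely within both genotypes, at 8.82, 17.5 and 11.7 CPM in tfIIfα-2 and 10.3, 19.9 and 16.5 CPM in wild type. It was lower in the mutant for each replicate number, and with the block its log2 fold change of -0.30 ± 0.10 did not pass (adjusted p = 0.0594). The S-phase median was 0.03, the mitotic median 0.01 and the median over all genes -0.00. Neither class median kept its sign when 1 library was left out, with S-phase medians from -0.076 (without tfIIfα-2 replicate 2; -0.0681 without wild-type replicate 3) to 0.113 (without tfIIfα-2 replicate 3), and mitotic medians from -0.138 (without tfIIfα-2 replicate 2; -0.0669 without wild-type replicate 1) to 0.14 (without tfIIfα-2 replicate 3). The S-phase mean exceeded the mitotic mean by 1.17, 0.981 and 1.24 log2 CPM in tfIIfα-2 and by 1.41, 1.09 and 0.991 in wild type, with overlap.

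For 16 of the 34 genes the libraries of tfIIfα-1 and wild type were apart (47.1%, against 49.4% of all genes), 8 with the mutant higher (24.2% of all genes) and 8 with it lower (25.2% of all genes). In tfIIfα-2 this was so for 7 genes (20.6%, against 28.7% of all genes), 3 higher (13.1% of all genes) and 4 lower (15.6% of all genes). The direction was the same in both alleles for 11 of the 12 S-phase genes, for 8 of the 15 mitotic genes and for 75.3% of the 18477 genes tested in both. Only CYCA3;2 differed in sign among the S-phase genes. Some that agreed were near 0: MCM4, MCM5 and MCM7 had 0.06, 0.03 and 0.01 in tfIIfα-1, and 0.03, 0.05 and 0.15 in tfIIfα-2. MCM3 changed sign in tfIIfα-2 in fits that left out 1 library. The log2 fold changes of the 2 alleles correlated across the 12 S-phase genes with Pearson's r = 0.887 and across the 15 mitotic genes with r = 0.405. Over all genes tested in both, r was 0.677. Genes of a library share its depth and preparation and are no independent replicates. The S-phase fold changes also spanned more, from -0.29 to 0.56 in tfIIfα-1 and -0.75 to 0.46 in tfIIfα-2. Those of the mitotic genes ran from -0.30 to 0.29 and from -0.36 to 0.30. The part of this range in the correlations was not tested.

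A test of the difference between the alleles over 12 libraries called none of the 34 genes in edgeR, where it called 0.772% of 20602 genes (0.0582% with the larger value in tfIIfα-1 and 0.714% with the smaller). No gene of the 34 had an unadjusted p under 0.05 there. DESeq2 called 0 of the 34, with 1 at such a p, where it called 1.65% of all genes. The smallest p belonged to CYCA3;2 (tfIIfα-1 minus tfIIfα-2 effect 0.33 ± 0.15 log2) and CDC6A (0.39 ± 0.18). The interval for PCNA2 ran from -0.09 to 0.51, which includes 0.

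Levels between genes were compared per kilobase of exon. PCNA2 and PCNA1 had the highest level per kilobase in tfIIfα-1, at 33.7 and 29.5 CPM, against 23.9 and 19.9 CPM in wild type. CYCD3;2 was at 25.8 in the mutant and at 25.2 CPM per kilobase in wild type, where it ranked first. The lowest were CYCA2;1, CYCB2;1 and CYCA2;2, at 0.368, 0.920 and 1.48 CPM per kilobase in tfIIfα-1 and 0.438, 1.13 and 1.97 in wild type. Among the helicase subunits the wild-type level per kilobase ran from 5.67 for MCM6 to 11.9 for MCM7.

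Of 77 other genes of the cell cycle in 9 groups by role, 75 were tested in tfIIfα-1, of which 10 rose (13.3%, against 18.7% of all genes) and 11 fell (14.7%, against 19.6%), and the median of their log2 fold changes was -0.02. Of the replication enzymes 4 of 10 rose (40%, against 18.7% of all genes), none fell (against 19.6%), all 10 had a positive log2 fold change (against 49.8% of all genes) and their median was 0.14. LIG1, the DNA ligase that joins new strands, was at 43.5, 45.5 and 42.0 CPM in tfIIfα-1, against 31.4, 29.5 and 32.5 CPM in wild type (log2 fold change 0.49 ± 0.07 SE, adjusted p = 4.3e-05). Named after their values were seen, TSO2, a small subunit of ribonucleotide reductase, ICU2, the catalytic subunit of DNA polymerase alpha, and ETG1, an MCM-binding protein, rose by 0.25, 0.20 and 0.18 on the log2 scale. Without libraries a and b LIG1 kept its call, and TSO2 (0.12, adjusted p = 0.39), ICU2 (0.22, 0.102) and ETG1 (0.21, 0.114) lost theirs. Leaving out 1 library also ended these calls. TSO2 lost its call without wild-type replicate 2 (adjusted p = 0.0954) or library a (0.0665). ICU2 lost it without wild-type replicate 1 (0.0699) or 2 (0.1003), tfIIfα-1 replicate 1 (0.0585) or library a (0.0536), and ETG1 without wild-type replicate 1, 2 or 3 (0.0749, 0.0907 and 0.111), tfIIfα-1 replicate 1 (0.0854) or library b (0.0717). Exons of other genes hold 15.3% of the 50-base stretches of ICU2, so its values are less certain. In tfIIfα-2 none of the 10 replication enzymes passed without the replicate block, 8 were positive and the median was 0.16. With the block 2 passed, LIG1 and RFC1. LIG1 was at 21.3, 25.1 and 23.2 CPM there, against 18.2, 19.1 and 18.2 CPM in wild type (0.32 ± 0.10, adjusted p = 0.124, and 0.0296 with the replicate block). RFC1, the large subunit of the factor that loads PCNA, named after its values were seen, was at 15.4, 15.2 and 14.1 CPM, against 12.8, 11.3 and 11.9 CPM, apart with the mutant above (0.31 ± 0.10, adjusted p = 0.131, and 0.0434 with the block).

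Origin licensing genes went both ways in tfIIfα-1. ORC1B, a large subunit of the origin recognition complex, was at 7.90, 7.56 and 7.13 CPM in the mutant, against 13.5, 13.5 and 13.9 CPM in wild type (log2 fold change -0.85 ± 0.08, adjusted p = 2.0e-06). Its paralogue ORC1A was at 0.995, 0.982 and 1.02 CPM, against 2.52, 2.41 and 2.48 CPM (-1.31 ± 0.18, adjusted p = 7.4e-05). ORC4, named after its values were seen, rose by 0.48, with an adjusted p of 0.0909 without library a and 0.335 without a and b. Exons of other genes hold 34.2% of the 50-base stretches of ORC1A, so its values are less certain. In tfIIfα-2 the log2 fold changes of ORC1B and ORC1A were -0.14 and -0.37, with overlap. CDC6B, the second CDC6 gene, named after its values were seen, was at 1.11, 1.2 and 0.964 CPM in tfIIfα-2, against 2.06, 1.97 and 1.78 CPM in wild type, apart with the mutant below (-0.83 ± 0.18, adjusted p = 0.057, and 0.0162 with the replicate block). ORC1B (AT4G12620) bears the next identifier after RAP74, and ORC1A lies in a stretch of chromosome 4 from AT4G12640 to AT4G15550, known from earlier results, with 271 tested genes, whose log2 fold changes had the median -0.997 in tfIIfα-1, where 234 were lower, and -0.03 in tfIIfα-2. No gene of the 34 lies in that stretch, and its part in the values of ORC1A, ORC1B and RAP74 was not tested. DESeq2 called the difference between the alleles for ORC1B, and edgeR did not (adjusted p = 0.111).

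Of the checkpoint regulators, ANAC044 rose in both alleles. This NAC factor halts the cycle after DNA damage, and it was at 2.66, 3.67 and 3.50 CPM in tfIIfα-1, against 1.00, 0.645 and 0.772 CPM in wild type (log2 fold change 2.01 ± 0.21, adjusted p = 5.36e-06). It was at 1.91, 1.80 and 2.15 CPM in tfIIfα-2, against 0.352, 0.529 and 0.185 CPM (2.44 ± 0.33, adjusted p = 0.0214). The groups were far apart in both kits, although the call in tfIIfα-2 was lost in each fit that left out 1 library (adjusted p from 0.0524 to 0.0888). ANAC085, its paralogue, rose in tfIIfα-1 with wild type near 0, at 20, 18 and 16 counts in the mutant against 2, 2 and 0 (adjusted p = 0.00105). It was too low to be tested in tfIIfα-2, with 11, 12 and 6 counts against 0, 0 and 1. SOG1, which acts above both, and WEE1, a kinase that restrains CDKs, did not pass in either allele.

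Of 11 tested CDK inhibitors 2 fell (18.2%, against 19.6% of all genes) and 1 rose (9.09%, against 18.7%) in tfIIfα-1. Of 9 genes of the E2F and retinoblastoma group 2 fell there (22.2%, against 19.6% of all genes). KRP4, a CDK inhibitor, was at 7.99, 8.30 and 8.50 CPM in the mutant, against 11.2, 11.3 and 11.1 CPM in wild type (log2 fold change -0.44 ± 0.08, adjusted p = 0.00068). In tfIIfα-2 it was at 5.69, 6.09 and 9.42 CPM, against 8.04, 8.31 and 11.8 CPM, which overlap but are lower in the mutant for each replicate number (-0.41 ± 0.23, adjusted p = 0.342, and 0.019 with the replicate block). Exons of a neighbour hold 39.1% of its 50-base stretches. KRP1 fell by 0.29 in tfIIfα-1 and KRP6 rose by 0.50, both named after their values were seen. The call of KRP1 was lost without wild-type replicate 1 (adjusted p = 0.187), tfIIfα-1 replicate 1 (0.118) or library b (0.0692), and that of KRP6 without wild-type replicate 3 (0.0726), library a (0.0969) or both a and b (0.254). In tfIIfα-1, 8 of 11 tested CDK inhibitors did not pass. DEL3, an atypical E2F that represses E2F targets, was at 3.76, 3.23 and 3.87 CPM, against 4.93, 5.23 and 4.77 CPM (-0.46 ± 0.12, adjusted p = 0.0093, and 0.103 without libraries a and b), and DEL2, named after its values were seen, fell by 0.47. The call of DEL2 was lost in each fit that left out 1 library other than wild-type replicate 3 or library b: without wild-type replicate 1 or 2 (adjusted p = 0.0916 and 0.0945), tfIIfα-1 replicate 1 (0.117) or library a (0.122), and it was 0.0524 without a and b. In tfIIfα-2 DEL2 was at 0.776, 1.17 and 0.900 CPM, against 1.18, 1.85 and 1.78 CPM, barely apart (-0.76 ± 0.26, adjusted p = 0.147, and 0.0328 with the replicate block). The other 7 genes of the E2F and retinoblastoma group and the 5 of the MYB3R group, among them factors that read the motifs above, did not pass in either allele.

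Of 7 genes of cytokinesis and the spindle, 2 fell in tfIIfα-1 (28.6%, against 19.6% of all genes). Of these, 1 also fell in tfIIfα-2 (14.3% of the 7, against 1.72% of all genes). Both genes that fell act in the phragmoplast, the structure that builds the new cell wall. HINKEL, a kinesin needed for its growth, was at 12.1, 14.4 and 11.3 CPM in tfIIfα-2, against 18.5, 20.6 and 18.7 CPM in wild type (log2 fold change -0.61 ± 0.12, adjusted p = 0.0439). It was at 14.6, 16.0 and 17.3 CPM in tfIIfα-1, against 17.9, 20.0 and 18.8 CPM (-0.24 ± 0.08, adjusted p = 0.0266). The groups were apart in both kits, but the call in tfIIfα-2 was lost in each fit that left out 1 library (adjusted p from 0.0768 to 0.149), and that in tfIIfα-1 without wild-type replicate 2 (0.109), wild-type replicate 3 (0.0544) or tfIIfα-1 replicate 1 (0.109). MAP65-3, which bundles microtubules at its midline, was at 10.3, 11.6 and 11.7 CPM in tfIIfα-1, against 13.2, 15.7 and 14.9 CPM (-0.38 ± 0.09, adjusted p = 0.0036). In tfIIfα-2 it was at 7.29, 9.28 and 7.04 CPM, against 9.87, 11.2 and 10.9 CPM (-0.44 ± 0.14, adjusted p = 0.116, and 0.0212 with the replicate block). The other 5 genes of this group did not pass in either allele.

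Other cyclins also moved in both directions. CYCA2;3, a further restraint on endoreduplication, was at 9.47, 9.59 and 10.5 CPM in tfIIfα-1, against 11.9, 12.2 and 12.9 CPM in wild type (log2 fold change -0.32 ± 0.08, adjusted p = 0.0068). In tfIIfα-2 it was at 4.63, 4.70 and 4.05 CPM, against 6.08, 7.11 and 6.46 CPM (-0.55 ± 0.12, adjusted p = 0.0579, and 0.013 with the replicate block). CYCD4;1 and CYCD4;2, D-type cyclins, fell by 0.62 ± 0.17 and 1.26 ± 0.34 on the log2 scale in tfIIfα-1 (adjusted p = 0.00873 and 0.00957). Without wild-type replicate 1 CYCD4;1 had an adjusted p of 0.0623, and CYCD4;2 had 0.0748 without wild-type replicate 3 and 0.155 without libraries a and b. Their values in tfIIfα-2 were -0.78 and -0.996, with adjusted p of 0.0663 and 0.0916 and, with the block, 0.0221 and 0.0459. CYCB2;3 rose by 0.34 in tfIIfα-1 (adjusted p = 0.00767, and 0.0718 without a and b), and CYCD6;1, named after its values were seen, rose by 0.51. The call of CYCD6;1 was lost without wild-type replicate 1 (adjusted p = 0.0771), library a (0.0577), library b (0.0575) or both (0.382). Exons of other genes hold 23% of the 50-base stretches of CYCD6;1 and 17% of those of CYCB2;3, so their values are less certain. In tfIIfα-2 the 72 tested genes of the 9 groups gave 1 rise and 1 fall, ANAC044 and HINKEL (1.39% each, against 1.48% and 1.72% of all genes). With the replicate block they gave 3 rises (4.17%, against 9.56% of all genes) and 8 falls (11.1%, against 9.18%).

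**Figure D4:**
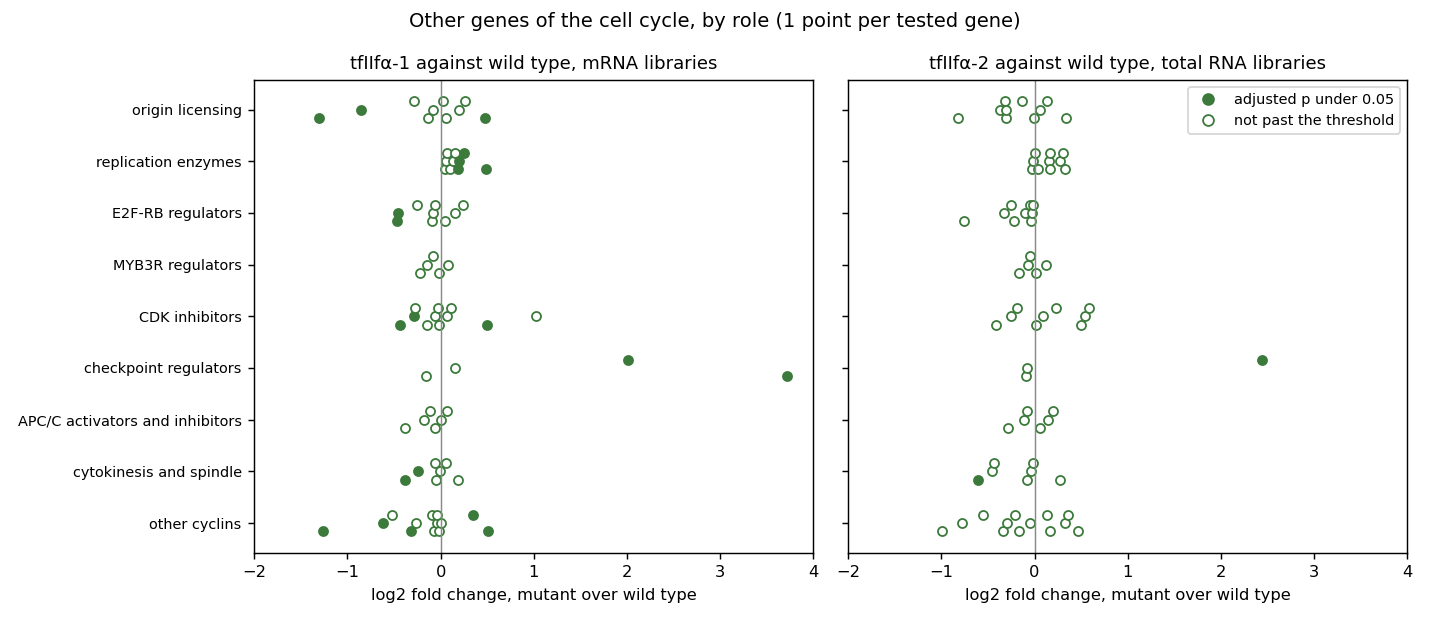
Log2 fold change, mutant over wild type, of each tested gene of the 9 other groups (rows), for tfIIfα-1 on the left and tfIIfα-2 on the right, with filled points past an adjusted p of 0.05. In tfIIfα-1 all 10 replication enzymes lie right of 0, and the points far to the right are ANAC044 at 2.01 and ANAC085 at 3.72. In tfIIfα-2 the filled points are ANAC044 at 2.44 and HINKEL at -0.61.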

How the data were processed

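Raw counts per gene were deposited by the authors as whole numbers for 33602 genes in 12 libraries. Per the file headers, the authors also deposited mean normalized counts per group (a score), log2 fold changes and adjusted p-values. TAIR10, Bowtie2 2.2.9, edgeR 3.20.1 and FastQC 0.11.5 are listed in the submitters' processing notes; the counting tool and its strand setting are not given in the sources used here. Columns for 2 tfIIfα-1 libraries (a and b) bear the name of the other allele, but their run prefix is that of the mRNA libraries. The deposited tfIIfα-1 mean differs by at most 0.807 from a weighted sum of the 3 columns over 18073 genes. A further 6 count columns and 18 normalized columns were not used.

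The 3 libraries of an allele were tested against the 3 wild-type libraries of the same kit, over all genes passing filterByExpr (R 4.3.3, edgeR 4.0.16, TMM, quasi-likelihood test, Benjamini-Hochberg over all genes tested, threshold 0.05). SE is the absolute log2 fold change over the root of F, and CPM uses TMM library sizes. The difference between alleles is the interaction over 12 libraries. Alternatives included DESeq2 1.42.0 and limma-voom (limma 3.58.1). Same-numbered total RNA libraries deviated together from their group means (correlations 0.638, 0.231 and 0.534 over genes), so their numbers, taken from the titles, were used as a block. Scripts were tested on simulated data.

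The 34 genes and all lists were chosen with earlier results of these data known. Named in full were genes past the threshold in either comparison and the next 2 by p in each, and of the other pathway genes at most 12 past the threshold per comparison; further genes given with their libraries were picked after their values were seen. Motifs were searched in RefSeq TAIR10.1, for gene starts and exons only, since the deposited table holds no coordinates.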

Additional observations from a re-analysis of the deposited data

How the results depend on the processing

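Counts of called genes depended on the fit more than directions did. With 1 fit over 12 libraries, 4329 genes (21% of those tested) and 3 of the 34 were called in tfIIfα-1, 0 of them mitotic. In tfIIfα-2 that fit called 2926 genes (14.2%) and 3 of the 34, all 3 of S phase. At an adjusted p under 0.01, 5137 genes (25.2%), 3 of the 34 and 0 mitotic genes were called in tfIIfα-1. In tfIIfα-2 it was 28 genes (0.148%) and 0 of the 34. Without tfIIfα-1 libraries a and b, chosen after seeing the data, 4838 genes, 3 of the 34 and 0 mitotic genes were called, the S-phase median was 0.0217 and the mitotic median 0.0284, and 12 genes differed between the alleles. Leaving out 1 library gave 3 to 7 of the 34 in tfIIfα-1, where 30.7% to 34.1% of all genes were called. There 0 to 1 mitotic gene was called and mitotic medians ran from -0.0713 to 0.0092. In tfIIfα-2 it gave 4 to 169 genes in all (0.0208% to 0.885%), with 0 of the 34. Of the 21 other cell cycle genes called in tfIIfα-1, 15 to 18 kept their call when 1 library was left out and 11 without a and b. With the A2 cyclins counted as mitotic, 2 mitotic genes were called in tfIIfα-1, where 38.4% of all genes were. DESeq2 called 1345 genes (7.13%) in tfIIfα-2 and 339 (1.65%) between the alleles. With the replicate block, 3535 genes (18.7%) and 4 of the 34, 3 of S phase and 1 mitotic, were called in tfIIfα-2. No paired analysis was possible for tfIIfα-1 because the headers of libraries a and b do not tell which replicate each is. In tfIIfα-2, fits that left out 1 library turned the direction of MCM3 (-0.10 and -0.08, up to 0.13), CYCB1;1 (-0.13 and -0.03, up to 0.18), CDKB2;1 (-0.04 and -0.0654 at the low end, 0.14 at the high) and DEL3 (-0.28 to 0.0417), none of which was called. RLE normalization, both other count filters and removal of organelle genes changed no call of the 34 genes, nor did removal of the chromosome 4 stretch in tfIIfα-1. The cause of these changes was not tested, and the shallower nuclear depth and wider spread of the total RNA libraries limit what they can show.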

Other observations

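Stomatal lineage genes, which mark a set of dividing epidermal cells, all had a negative log2 fold change in tfIIfα-1, from -0.49 for EPF1 to -0.0065 for POLAR. Over all genes 49.8% had a positive one. Of the 8 genes 1 passed the test, which 38.4% of all genes did. FAMA, the factor of the last division of that lineage, was at 11.2, 10.5 and 8.43 CPM in tfIIfα-1, against 14.6, 12.1 and 12.8 CPM in wild type (log2 fold change -0.39 ± 0.11 SE, adjusted p = 0.0102, edgeR), with an adjusted p of 0.0623 without wild-type replicate 1 and 0.198 without tfIIfα-1 libraries a and b. EPF1, a secreted peptide that spaces stomata, was at 1.63, 1.44 and 0.912 CPM, against 2.21, 1.66 and 1.76 CPM (-0.49 ± 0.23, adjusted p = 0.111). Both pairs of groups were apart with the mutant below, barely so for EPF1 (1.63 against 1.66 CPM). In tfIIfα-2 the 8 genes split into 4 of each sign and none passed, with FAMA at 5.43, 5.56 and 6.20 CPM, against 6.18, 6.84 and 7.69 CPM (-0.27 ± 0.13, adjusted p = 0.261). CUC2, a boundary gene of the shoot meristem, was at 0.840, 1.15 and 1.204 CPM in tfIIfα-1, against 0.649, 0.747 and 0.494 CPM (0.75 ± 0.29, adjusted p = 0.0517).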
